A study of Mus musculus with 10 samples.

Results

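The urea cycle and the breakdown of amino acids were followed through 43 listed genes in mouse liver, of 18869 gene identifiers in the deposited table. The genes were taken by symbol from that list, and all 43 had an identifier in the table. They were the enzymes and 1 carrier of the urea cycle, and the glutamate-linked enzymes, namely transaminases, a glutaminase and glutamate dehydrogenase. The list also held enzymes that degrade tryptophan, tyrosine, serine, glycine, branched-chain amino acids, lysine and histidine. The 5 further genes were Prodh, Asns, Etnppl, Agxt2 and Ddc. The libraries came from the livers of Nrf2Act-hep mice (5 libraries) and of wild-type (WT) mice (5 libraries). All were C57BL/6 animals aged 6 weeks, kept on regular chow, whose livers were taken after a fast of 15 h. The Nrf2Act-hep label describes NRF2 activation in the liver and gives neither the allele nor the promoter that drives it. Sample titles carry the letter M or F, with 3 M and 2 F libraries in Nrf2Act-hep against 2 M and 3 F libraries in WT. Whether every library is a different mouse is not stated. The p-values below therefore rest on variation among libraries, some of which could be technical.

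The liver strips the amino group from amino acids by transamination and deamination, and the urea cycle turns the resulting ammonia into urea for excretion. The carbon skeletons go on to glucose, ketone bodies or oxidation, and in the fasted liver these routes feed gluconeogenesis. NRF2, the product of Nfe2l2, binds antioxidant response elements in DNA and is best known for its targets in glutathione synthesis and detoxification.

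Expression is given as CPM, the reads of a gene scaled by the read total of its library, after TMM scaling. The reads are tags near the 3′ end, whose number does not grow with transcript length. Depth ran between 2167528 and 2806670 reads in Nrf2Act-hep libraries and between 1267745 and 2287727 reads in WT libraries, so that 3 reads stood for 1.07 to 1.38 CPM in Nrf2Act-hep and for 1.31 to 2.37 CPM in WT. Fold changes are Nrf2Act-hep minus WT on the log2(CPM + 1) scale, given with the standard error (SE) from limma with the M or F letter as a covariate. P-values were adjusted over the 8075 genes tested and called at 0.05. Nfe2l2 itself averaged 40.8 ± 4.16 CPM in Nrf2Act-hep and 59.8 ± 12.0 CPM in WT (SD, n = 5 each) and was called lower (fold change -0.47 ± 0.13; limma, adjusted p = 0.0436), a level of RNA that says nothing of the activity of its protein. The NRF2 target Gclc averaged 547.9 ± 147.6 CPM in Nrf2Act-hep and 141.6 ± 59.4 CPM in WT, and of 8 genes checked for NRF2 activity, Nfe2l2 among them, 6 rose (against 2.79% of all genes) and Nfe2l2 alone fell by limma. The 7 hepatocyte markers measured all had a fold change below 0, with a median of -0.42, and 2 of them, Apoa1 and Serpina1a, fell by limma (28.6%, against 1.86% of all genes). Their summed level, most of it Alb, was 31244 to 40209 CPM in Nrf2Act-hep and 43131 to 51972 CPM in WT, without overlap. In tissue RNA, fewer cells of a type and less RNA per cell cannot be told apart, and the part of this difference in the results below was not tested.

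Of the 43 genes, 42 passed the filter on low values, which asked for about 4.50 CPM in 5 libraries, and Asns did not. Their mean level over the 10 libraries ran from 12.2 CPM for Sdsl to 3843 CPM for Arg1. Levels over 1000 CPM were reached by 3 genes, Arg1, Tdo2 and Cps1, and 18 genes lay under 100 CPM. Between genotypes, 4 genes rose (Etnppl, Ddc, Gpt2 and Tdo2) and 2 fell (Amdhd1 and Prodh) by limma. That is 14.3% of the 42 genes, against 4.64% of all genes tested. In the upward direction it was 9.52% of the 42 genes against 2.79% of all genes, and in the downward direction 4.76% against 1.86%. In all 6 the groups did not overlap, which held for 5.14% of all genes, 3.05% with Nrf2Act-hep above WT and 2.09% with Nrf2Act-hep below WT. By edgeR the same 6 of the 42 genes passed (4.84% of all genes), and by DESeq2 8 passed, these 6 with Ass1 and Hal (4.53% of all genes).

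Most of the genes that were not called had a fold change below 0. Of the 42 genes, 33 (78.6%) were below 0 and 9 above it, against 49.3% of all genes below 0. The median fold change of the 42 genes was -0.17, and that of all genes was 0.01. When the deposited CPM were used without TMM, the median over all genes was 0.13 and that of the 42 genes was -0.04, with 24 genes below 0 and 18 above it, so the sign of many small differences depended on the scaling. The distance between the medians was -0.17 on the log2 scale after TMM and -0.17 on the deposited scale. A scaling factor acts on all genes of a library alike, so this distance could hardly change and is no check of the result. Of the 36 genes not called, 6 had a 95% interval of the fold change wholly below 0 (Ass1, Hal, Uroc1, Bckdha, Bckdhb and Amt), and 0 had one wholly above 0. The intervals of these 36 genes lay between -0.90 and 0.69.

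**Figure D1:**
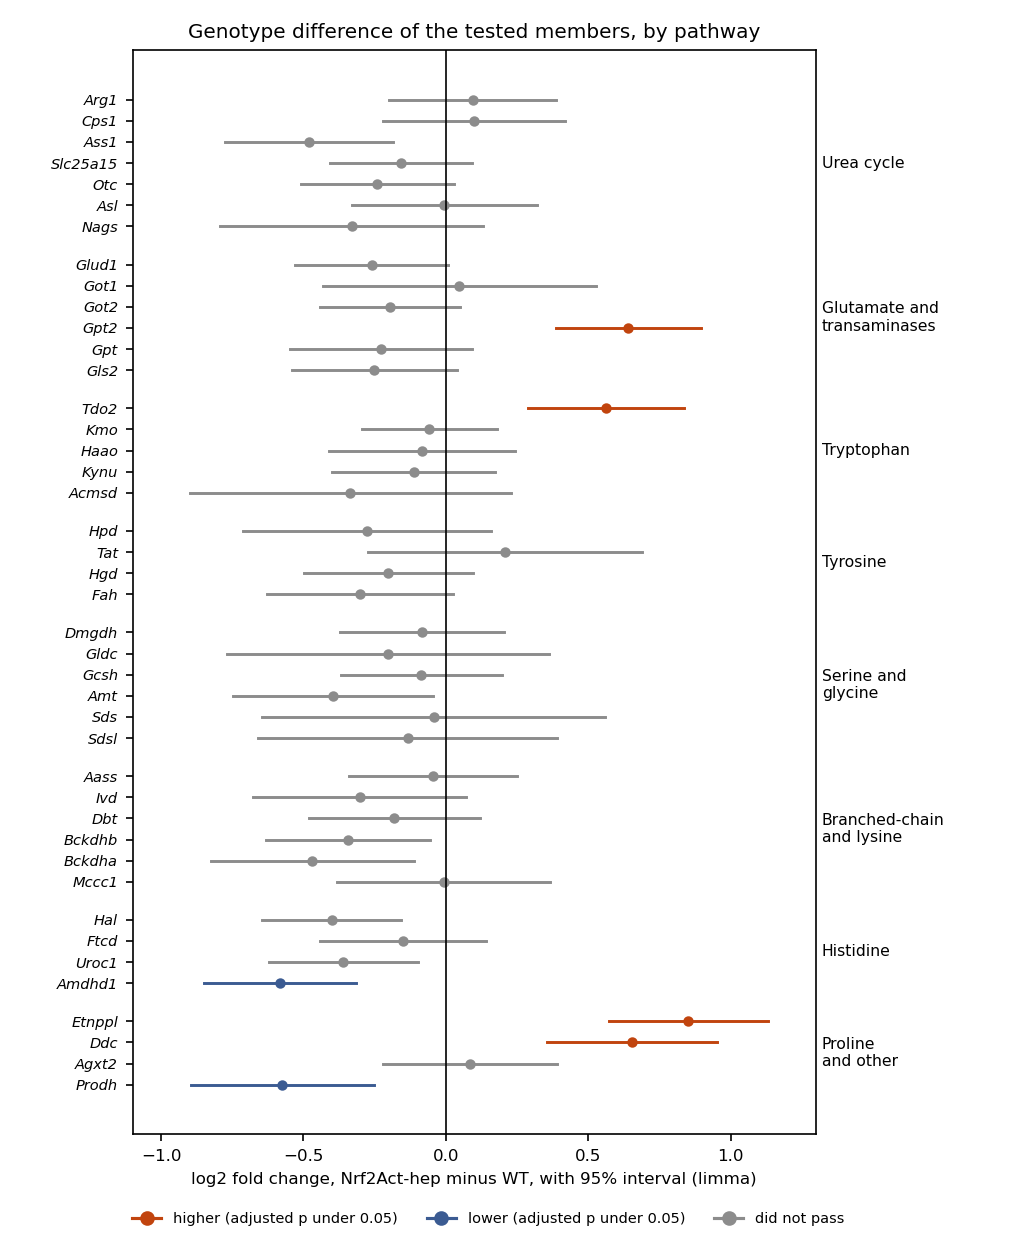
Fold changes of the 42 tested genes (x axis, Nrf2Act-hep minus WT, log2 of CPM + 1), ordered by pathway down the page. Points are limma estimates, lines are 95% intervals and colour marks the 6 called genes. Etnppl at 0.85 stands farthest right and Amdhd1 at -0.58 farthest left, and most other points lie a little left of 0.

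In the urea cycle only Ass1 came near or past the threshold, depending on the tool. Of its 7 genes, 0 passed by limma with all libraries and the filter on low values (1 had an unadjusted p under 0.05, Ass1), 0 by edgeR and 1 by DESeq2, Ass1. Their median fold change was -0.16. By limma 1308 of all 8075 genes had an unadjusted p under 0.05 between genotypes. Cps1, carbamoyl phosphate synthetase and the entry step in the mitochondrion, averaged 1388 ± 258.6 CPM in Nrf2Act-hep and 1298 ± 242.3 CPM in WT (SD, n = 5 each). Its fold change of 0.10 had an interval of -0.22 to 0.42. Arg1, the arginase that releases urea, averaged 3902 ± 364.6 CPM in Nrf2Act-hep and 3783 ± 683.3 CPM in WT, with a fold change of 0.09 and an interval of -0.20 to 0.39. These are the most abundant urea cycle genes, and the intervals of both exclude a change of 0.5 on the log2 scale in either direction.

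Ass1, argininosuccinate synthetase, which joins citrulline and aspartate, was the urea cycle gene nearest the threshold. It had 534.7, 494.9, 558.6, 392.1 and 532.0 CPM in Nrf2Act-hep replicates 6 to 10, against 893.3, 533.1, 764.8, 687.5 and 604.0 CPM in WT replicates 1 to 5. In 3 Nrf2Act-hep libraries it lay below every WT library, and WT replicate 2 lay within the Nrf2Act-hep range. The fold change was -0.48 ± 0.14 (SE, n = 5 each; limma, adjusted p = 0.0568). Ass1 passed in 3 of the 21 alternatives run. Without WT replicate 2 the adjusted p was 0.00652 (limma), with no filter on low values it was 0.0267 (limma), and by DESeq2 it was 0.0287. Other settings moved it away from the threshold. By limma the adjusted p was 0.271 without WT replicate 1, 0.195 without Nrf2Act-hep replicate 9 and 0.177 without TMM.

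The next enzyme, Asl, which splits argininosuccinate into arginine and fumarate, averaged 189.3 ± 24.0 CPM in Nrf2Act-hep and 201.7 ± 49.1 CPM in WT (SD, n = 5 each), with a fold change of -0.01 and an interval of -0.33 to 0.32. Otc, which makes citrulline and lies on chromosome X, averaged 211.2 ± 32.4 CPM in Nrf2Act-hep and 243.8 ± 30.7 CPM in WT, with a fold change of -0.24 ± 0.13. Slc25a15, the mitochondrial carrier that exchanges ornithine for citrulline, averaged 239.8 ± 32.4 CPM in Nrf2Act-hep and 282.8 ± 53.2 CPM in WT, with a fold change of -0.16 ± 0.12. Nags makes N-acetylglutamate, the activator that Cps1 needs. It was the lowest of the cycle, at 25.2 ± 7.81 CPM in Nrf2Act-hep and 30.3 ± 8.95 CPM in WT, with a fold change of -0.33 ± 0.22. The summed level of the 7 genes was 5801.9 to 7175 CPM in Nrf2Act-hep and 4786.9 to 7400.7 CPM in WT, the Nrf2Act-hep range lying inside the WT range.

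Among the 6 glutamate-linked genes, 1 rose and 5 were not called by limma, with a median fold change of -0.21. The gene that rose was Gpt2 (chr8:85492576-85527560, plus strand, GRCm38), the mitochondrial alanine aminotransferase, which interconverts alanine and pyruvate. Gpt2 had 276.3, 284.3, 238.3, 210.5 and 180.2 CPM in Nrf2Act-hep replicates 6 to 10, against 156.1, 141.4, 160.5, 129.5 and 139.0 CPM in WT replicates 1 to 5. All 5 Nrf2Act-hep libraries lay above all WT libraries, with the 3 M libraries above the 2 F libraries of that genotype. This gave a fold change of 0.64 ± 0.12 (SE, n = 5 each; limma, adjusted p = 0.00204), and Gpt2 passed in each of the other settings run except in the F libraries alone.

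Its cytosolic counterpart Gpt was not called. Gpt averaged 115.4 ± 26.2 CPM in Nrf2Act-hep and 131.3 ± 26.6 CPM in WT (SD, n = 5 each). Its fold change was -0.23 with an interval of -0.55 to 0.09, which lies wholly below the Gpt2 interval of 0.39 to 0.90. The difference between both genes was not tested as such. Glud1, glutamate dehydrogenase, which frees ammonia from glutamate, averaged 451.2 ± 52.6 CPM in Nrf2Act-hep and 546.5 ± 73.6 CPM in WT, with a fold change of -0.26 ± 0.13. Gls2, the liver glutaminase, averaged 96.6 ± 11.8 CPM in Nrf2Act-hep and 115.7 ± 23.6 CPM in WT, with a fold change of -0.25 ± 0.14. The aspartate aminotransferases were not called. Got1, the cytosolic form, had a fold change of 0.05 ± 0.22 and Got2, the mitochondrial form, one of -0.20 ± 0.12. The interval was -0.43 to 0.53 for Got1 and -0.44 to 0.05 for Got2.

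In the tryptophan pathway 1 of 5 genes rose by limma, the first enzyme, and the 4 downstream genes were not called, with fold changes between -0.34 and -0.06. Tdo2 (chr3:81957090-81976202, minus strand), tryptophan dioxygenase, opens the indole ring and commits tryptophan to the kynurenine route in liver. Tdo2 had 4030, 4820, 4551, 3132 and 3916 CPM in Nrf2Act-hep replicates 6 to 10, against 2724, 2465, 2753, 2882 and 2641 CPM in WT replicates 1 to 5. The groups did not overlap, and the WT libraries were close together while Nrf2Act-hep replicate 9 lay nearest to them. Tdo2 had a fold change of 0.56 ± 0.13 (SE, n = 5 each; limma, adjusted p = 0.0122). Leaving out 1 library ended the call in 3 cases, without WT replicate 1 (adjusted p = 0.0568), without WT replicate 2 (adjusted p = 0.0582) and without Nrf2Act-hep replicate 7 (adjusted p = 0.0557), all by limma.

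Downstream, Kmo, which hydroxylates kynurenine, averaged 178.1 ± 14.5 CPM in Nrf2Act-hep and 183.4 ± 17.0 CPM in WT (SD, n = 5 each), with a fold change of -0.06 and an interval of -0.30 to 0.18. Kynu, kynureninase, had a fold change of -0.11 ± 0.14, and Haao, which makes the precursor of quinolinate, one of -0.08 ± 0.16. Acmsd, which draws that precursor away from NAD synthesis, averaged 26.3 ± 11.8 CPM in Nrf2Act-hep and 28.6 ± 7.86 CPM in WT, with a fold change of -0.34 ± 0.26. That of Acmsd was -0.02 without Nrf2Act-hep replicate 9 and -0.56 without Nrf2Act-hep replicate 10. Because Tdo2 holds most of the reads of the pathway, its summed level followed Tdo2, at 3508.7 to 5236 CPM in Nrf2Act-hep and 2869.6 to 3338 CPM in WT.

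Histidine breakdown was the pathway in which every gene had a fold change below 0 and 1 of 4 passed by limma. The median was -0.38, and the summed level of the 4 genes was 625.8 to 808.8 CPM in Nrf2Act-hep against 843.6 to 1066.3 CPM in WT, without overlap. Histidine is turned by Hal (histidase), Uroc1 (urocanase) and Amdhd1 (imidazolonepropionase) into formiminoglutamate, whose one-carbon group Ftcd passes to folate.

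Amdhd1 (chr10:93523338-93540033, minus strand) had 60.9, 70.8, 73.8, 70.6 and 70.6 CPM in Nrf2Act-hep replicates 6 to 10, against 112.2, 114.7, 77.1, 116.1 and 99.3 CPM in WT replicates 1 to 5. The Nrf2Act-hep libraries were within a narrow range, below every WT library, and WT replicate 3 was the closest to them. Amdhd1 had a fold change of -0.58 ± 0.13 (SE, n = 5 each; limma, adjusted p = 0.00799). Hal had 312.0, 310.0, 342.2, 243.4 and 271.7 CPM in Nrf2Act-hep replicates 6 to 10, against 475.0, 361.5, 354.1, 315.3 and 377.7 CPM in WT replicates 1 to 5. Of the Nrf2Act-hep libraries 4 lay below every WT library. The fold change of Hal was -0.40 ± 0.12 (SE, n = 5 each; limma, adjusted p = 0.0542). Hal passed in 3 of the 21 alternatives run. They were DESeq2 (adjusted p = 0.0153), the fit without WT replicate 2 (limma, adjusted p = 0.0300) and that without WT replicate 4 (limma, adjusted p = 0.04995). With other libraries left out the adjusted p of Hal by limma reached 0.222, and in the F libraries alone it was 0.394.

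Uroc1 averaged 119.0 ± 15.2 CPM in Nrf2Act-hep and 150.8 ± 18.3 CPM in WT (SD, n = 5 each), with 4 Nrf2Act-hep libraries below every WT library. Its fold change was -0.36 ± 0.13 (limma, adjusted p = 0.122). Ftcd averaged 260.3 ± 44.7 CPM in Nrf2Act-hep and 282.4 ± 46.3 CPM in WT, with a fold change of -0.15 and an interval of -0.44 to 0.14. Hal and Amdhd1 are neighbours on chromosome 10, on opposite strands with 4033 bases between their 3′ ends, and Uroc1 lies on chromosome 6.

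**Figure D2:**
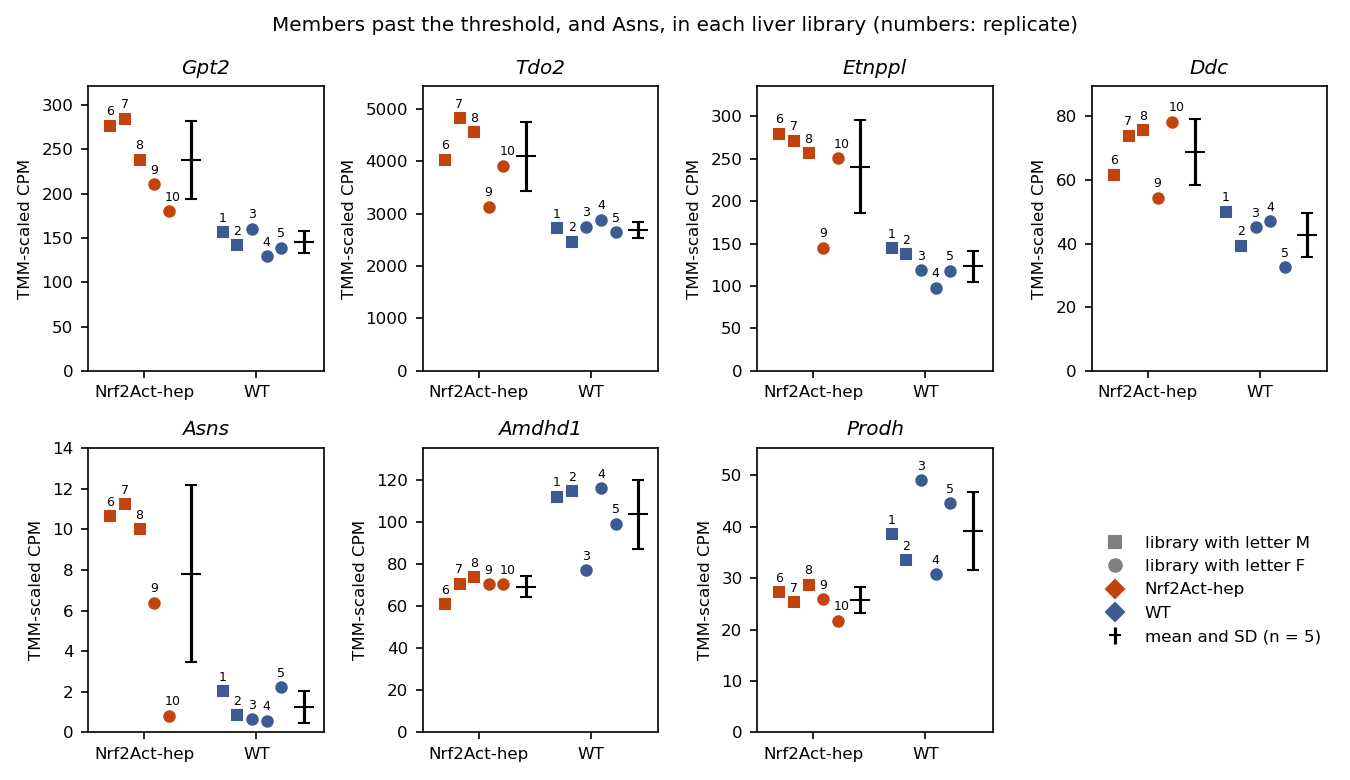
CPM after TMM scaling (y axis) in each library for the 6 called genes and Asns, with Nrf2Act-hep left of WT. Squares are M and circles F libraries, numbered by replicate, and black marks are the mean and SD of 5 libraries. Gpt2, Tdo2, Etnppl and Ddc lie higher in every Nrf2Act-hep library than in any WT library, Amdhd1 and Prodh lie lower, and Asns is near the WT level in Nrf2Act-hep replicate 10.

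Of the 5 further genes, 2 rose, 1 fell and 1 was not called by limma, and Asns was below the filter. Etnppl (chr3:130617448-130637521, plus strand) encodes ethanolamine-phosphate phospho-lyase, which degrades phosphoethanolamine, a lipid precursor and not an amino acid. Etnppl had 279.7, 271.4, 256.5, 145.3 and 250.8 CPM in Nrf2Act-hep replicates 6 to 10, against 144.6, 137.2, 118.4, 98.1 and 118.0 CPM in WT replicates 1 to 5. Nrf2Act-hep replicate 9 lay just above the highest WT library and the other 4 well above it. Its fold change was 0.85 ± 0.14 (SE, n = 5 each; limma, adjusted p = 0.000241).

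Ddc (chr11:11814101-11898144, minus strand), the aromatic amino acid decarboxylase that makes dopamine and serotonin from their amino acid precursors, had 61.7, 74.0, 75.6, 54.5 and 78.4 CPM in Nrf2Act-hep replicates 6 to 10, against 50.0, 39.3, 45.2, 47.0 and 32.5 CPM in WT replicates 1 to 5. Nrf2Act-hep replicate 9 and WT replicate 1 were the nearest pair of the groups, which did not overlap. The fold change was 0.65 ± 0.14 (SE, n = 5 each; limma, adjusted p = 0.00771). Without Nrf2Act-hep replicate 10 it no longer passed (limma, adjusted p = 0.0562).

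Prodh (chr16:18060357-18090203, minus strand), proline dehydrogenase, begins proline oxidation in the mitochondrion. It had 27.2, 25.3, 28.7, 25.9 and 21.8 CPM in Nrf2Act-hep replicates 6 to 10, against 38.5, 33.5, 49.0, 30.8 and 44.5 CPM in WT replicates 1 to 5. The groups did not overlap, with Nrf2Act-hep replicate 8 just under WT replicate 4. The fold change was -0.57 ± 0.16 (SE, n = 5 each; limma, adjusted p = 0.0327). This call was the least stable of the 6. It ended without TMM scaling (adjusted p = 0.110), without the filter on low values (adjusted p = 0.0766), and without any 1 of WT replicates 1 (0.0897), 3 (0.0835) and 5 (0.0804) or Nrf2Act-hep replicates 7 (0.0685), 9 (0.0664) and 10 (0.137), all adjusted p by limma. The 3′ end of Prodh lies within Dgcr6 on the opposite strand, which had 121 reads over the Nrf2Act-hep libraries and 68 over the WT libraries. These totals are not scaled for depth, which was greater in the Nrf2Act-hep libraries as a group. Whether the authors' counting used strand is not given in the sources used here, so reads of both genes cannot be told apart with certainty. The 3′ ends of Gls2, Acmsd, Hpd, Sds, Bckdha and Mccc1 likewise lie within a gene on the opposite strand. Agxt2, a mitochondrial aminotransferase for glyoxylate, averaged 42.7 ± 3.17 CPM in Nrf2Act-hep and 40.8 ± 7.89 CPM in WT (SD, n = 5 each), with a fold change of 0.09 and an interval of -0.22 to 0.39.

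Asns, asparagine synthetase, which makes asparagine from aspartate with glutamine as the nitrogen donor, was too low for the test across genes but differed in reads. It had 25, 28, 22, 19 and 2 reads in Nrf2Act-hep replicates 6 to 10, against 3, 1, 1, 1 and 5 reads in WT replicates 1 to 5. Nrf2Act-hep replicate 10 lay within the WT range and the other 4 lay above it. Summed over libraries these are 96 reads in Nrf2Act-hep and 11 in WT, a ratio of read rates of 6.31 with a 95% exact interval of 3.37 to 13.1 that covers counting error only. The gene entered the test when the filter was relaxed. With no filter its fold change was 1.61 ± 0.34 (SE, n = 5 each; limma, adjusted p = 0.00117), where 2.34% of the identifiers passed. With at least 1 CPM in 5 libraries, a condition met by 4 Nrf2Act-hep and 2 WT libraries, it was 1.58 ± 0.38 (limma, adjusted p = 0.0159), where 3.67% passed.

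Asns is a target of ATF4, the transcription factor of the amino acid starvation response, and a list of 17 genes of that response was set beside it. By limma 0 of the 9 that could be tested passed (2 had an unadjusted p under 0.05), and edgeR and DESeq2 each called 1, Ddit4. Their median fold change was 0.14. Trib3, a further ATF4 target, had 15.8, 12.9, 14.1, 15.8 and 5.34 CPM in Nrf2Act-hep replicates 6 to 10, against 8.78, 9.21, 7.64, 9.29 and 2.23 CPM in WT replicates 1 to 5. Its fold change was 0.63 ± 0.31 (SE, n = 5 each; limma, adjusted p = 0.328). Like Asns, Trib3 was lowest of the Nrf2Act-hep libraries in replicate 10. Other genes of the list went the other way there, with Atf4 (533 reads), Ddit3 (22 reads) and Ddit4 highest of the group in replicate 10. Ddit4 had 56, 94, 37, 67 and 198 reads in Nrf2Act-hep replicates 6 to 10, against 5, 3, 41, 6 and 59 reads in WT replicates 1 to 5. Atf4 itself averaged 140.1 ± 46.6 CPM in Nrf2Act-hep and 162.8 ± 34.5 CPM in WT (SD, n = 5 each).

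Promoter sequences are shown for 5 genes: the rising genes Gpt2, Tdo2 and Etnppl, the falling gene Prodh, and Asns, which was too low for the test across genes but had more reads in Nrf2Act-hep. The other called genes, Ddc and Amdhd1, are not shown. The sequences come from RefSeq on GRCm38.p6 and run from 250 bases before to 50 bases after the annotated start, 5′ to 3′ on the strand of the gene. Windows matched 34 of the 43 genes. Capitals mark matches on either strand to TGACNNNGC, the core of the antioxidant response element that NRF2 binds, and to TGATGNAA, the composite element bound by ATF4 with a C/EBP protein.
Gpt2 (chr8:85492326-85492625, plus strand) and Etnppl (chr3:130617198-130617497, plus strand, the first of its annotated starts) have no match in the window.
Gpt2: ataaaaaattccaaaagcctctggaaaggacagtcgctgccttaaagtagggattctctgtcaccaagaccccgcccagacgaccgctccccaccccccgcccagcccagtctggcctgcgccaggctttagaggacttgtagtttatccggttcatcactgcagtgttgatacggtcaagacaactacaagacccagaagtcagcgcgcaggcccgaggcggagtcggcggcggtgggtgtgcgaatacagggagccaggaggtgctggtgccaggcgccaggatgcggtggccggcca
Etnppl: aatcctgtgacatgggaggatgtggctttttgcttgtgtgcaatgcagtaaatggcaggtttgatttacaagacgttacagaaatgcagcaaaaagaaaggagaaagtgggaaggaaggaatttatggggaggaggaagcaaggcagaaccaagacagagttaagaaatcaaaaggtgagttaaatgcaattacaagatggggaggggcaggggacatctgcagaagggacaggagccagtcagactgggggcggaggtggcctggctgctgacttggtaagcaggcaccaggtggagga
Tdo2 (chr3:81975679-81975978, minus strand) and Prodh (chr16:18089141-18089440, minus strand) each have 1 match to TGACNNNGC. Both windows lie inside the gene spans given above, so the RefSeq starts used lie downstream of the 5′ ends of those spans.
Tdo2: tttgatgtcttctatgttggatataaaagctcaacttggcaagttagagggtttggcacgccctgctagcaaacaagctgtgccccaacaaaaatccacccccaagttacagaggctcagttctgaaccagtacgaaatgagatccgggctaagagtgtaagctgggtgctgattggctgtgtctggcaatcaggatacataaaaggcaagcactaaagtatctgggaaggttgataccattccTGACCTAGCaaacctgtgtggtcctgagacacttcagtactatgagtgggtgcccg
Prodh: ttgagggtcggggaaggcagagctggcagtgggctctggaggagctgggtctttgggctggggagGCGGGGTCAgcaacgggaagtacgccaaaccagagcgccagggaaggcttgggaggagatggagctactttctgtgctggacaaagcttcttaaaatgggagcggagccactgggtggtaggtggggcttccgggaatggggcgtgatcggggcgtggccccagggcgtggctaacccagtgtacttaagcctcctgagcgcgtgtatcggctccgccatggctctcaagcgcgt
Asns (chr6:7693160-7693459, minus strand) has 1 match to each motif, the one to TGATGNAA lying 23 bases before the start.
Asns: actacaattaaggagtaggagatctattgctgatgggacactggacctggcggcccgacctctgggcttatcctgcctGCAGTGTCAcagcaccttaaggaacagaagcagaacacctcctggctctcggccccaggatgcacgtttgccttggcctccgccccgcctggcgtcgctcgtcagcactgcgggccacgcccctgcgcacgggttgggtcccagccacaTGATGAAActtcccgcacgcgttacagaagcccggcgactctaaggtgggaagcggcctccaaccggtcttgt

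Some genes have several annotated starts, so the 34 genes had 39 windows. TGACNNNGC occurred in 5 of the 39 windows, those of 5 genes (Amt, Asns, Bckdhb, Prodh and Tdo2), and in 12.4% of all 32851 promoter windows. TGATGNAA occurred in 2 of the 39 windows, those of Asns and Got1, and in 3.97% of all windows. A match is a description of letters and not evidence of binding, and genes with a match were found among those that rose, fell or were not called.

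In tyrosine breakdown 0 of 4 genes passed by limma, 0 had an unadjusted p under 0.05, and edgeR and DESeq2 each called 0. The median fold change was -0.24. Tat, tyrosine aminotransferase, the first step and a gene induced by glucocorticoids and fasting, varied within both groups, at 267.3, 415.7, 278.9, 354.1 and 567.7 CPM in Nrf2Act-hep replicates 6 to 10 against 358.8, 188.3, 434.9, 295.5 and 519.8 CPM in WT replicates 1 to 5. Its fold change of 0.21 had an interval of -0.27 to 0.69. Hgd, homogentisate dioxygenase, had a fold change of -0.20 ± 0.14, and Fah, which completes the route to fumarate and acetoacetate, one of -0.30 ± 0.16.

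Hpd, the dioxygenase that follows Tat, was the gene whose genotype difference varied most between F and M libraries. In the F libraries it had 473.1 and 452.3 CPM in Nrf2Act-hep against 959.0, 620.7 and 817.8 CPM in WT. In the M libraries it had 793.9, 675.0 and 502.6 CPM in Nrf2Act-hep against 663.6 and 468.6 CPM in WT. Both F libraries of Nrf2Act-hep lay below all F libraries of WT, and the M libraries overlapped between genotypes. The fold change was -0.77 in F and 0.21 in M libraries, a difference of -0.98 ± 0.30 (SE) that did not pass by limma (unadjusted p = 0.00434, adjusted p = 0.438). The 3′ end of Hpd lies within Psmd9 on the opposite strand, which had 708 reads over the Nrf2Act-hep libraries and 351 over the WT libraries. These totals too are not scaled for depth. The 3′ end of Hpd also lies within Gm26745, a lincRNA on the same strand, whose reads strand could not separate from those of Hpd.

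The 6 serine and glycine genes all had a fold change below 0, and 0 passed by limma (1 with an unadjusted p under 0.05, Amt), by edgeR or by DESeq2. The median was -0.11. Amt, the aminomethyltransferase of the glycine cleavage system, averaged 27.5 ± 6.50 CPM in Nrf2Act-hep and 35.2 ± 7.15 CPM in WT (SD, n = 5 each), with a fold change of -0.40 ± 0.17 (limma, adjusted p = 0.235). The transcripts of the other components of that system were nearer 0, Gldc at -0.20 ± 0.26, Gcsh at -0.09 ± 0.14 and Dld, from the list of other amino acid genes, at -0.19 ± 0.12. Dmgdh, which oxidises dimethylglycine from choline, averaged 176.4 ± 25.2 CPM in Nrf2Act-hep and 184.9 ± 35.5 CPM in WT, with a fold change of -0.08. Sds, serine dehydratase, which turns serine into pyruvate, ranged from 14.1 to 49.1 CPM in Nrf2Act-hep and from 24.8 to 41.2 CPM in WT, and its interval of -0.64 to 0.56 was among the widest. Sdsl, a related dehydratase that lies 3715 bases from Sds on chromosome 5, had a fold change of -0.13 ± 0.25.

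The 6 genes of branched-chain amino acid and lysine breakdown likewise all had a fold change below 0, with a median of -0.24. By limma 0 passed (2 with an unadjusted p under 0.05), and edgeR and DESeq2 each called 0. Bckdha and Bckdhb, the E1 subunits of the branched-chain ketoacid dehydrogenase, were the lowest. Bckdha averaged 28.8 ± 6.76 CPM in Nrf2Act-hep and 39.8 ± 7.15 CPM in WT (SD, n = 5 each), with a fold change of -0.47 ± 0.17 (limma, adjusted p = 0.146). Bckdhb averaged 58.4 ± 9.23 CPM in Nrf2Act-hep and 72.7 ± 11.3 CPM in WT, with a fold change of -0.34 ± 0.14 (limma, adjusted p = 0.199). Dbt, the E2 subunit, had a fold change of -0.18 ± 0.15. Of the enzymes of leucine breakdown, Ivd had a fold change of -0.30 ± 0.18 and Mccc1 one of -0.01 ± 0.18. Without Nrf2Act-hep replicate 10, in which Ivd was far below the other libraries of its group, the fold change of Ivd was -0.04. Aass, the first enzyme of lysine breakdown, averaged 346.0 ± 39.0 CPM in Nrf2Act-hep and 366.2 ± 68.4 CPM in WT, with a fold change of -0.04.

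**Figure D3:**
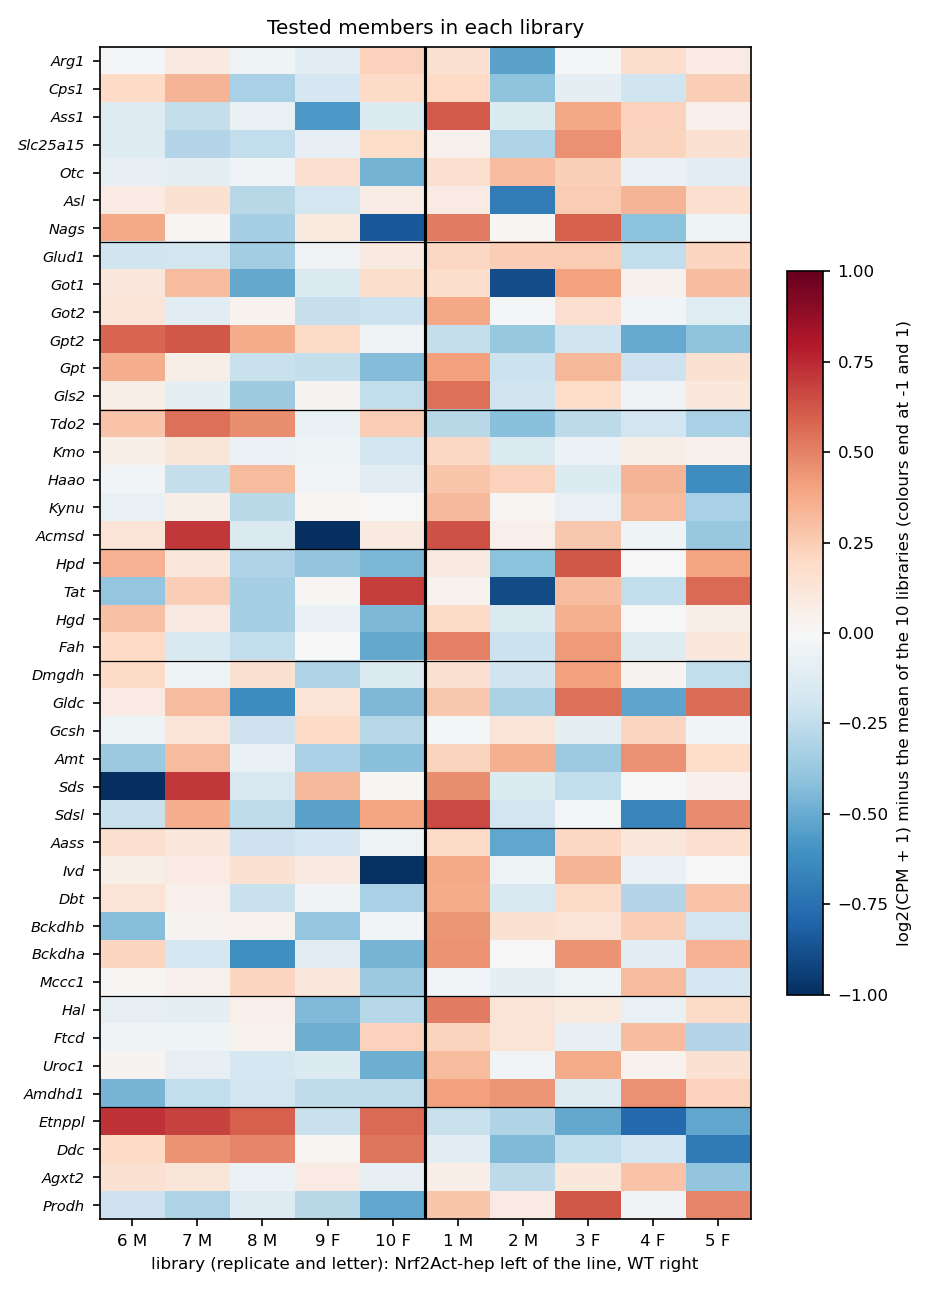
Each gene's level in each library relative to its own mean over the 10 libraries (colour, log2 scale), with genes in rows by pathway and Nrf2Act-hep columns left of WT columns. Gpt2, Tdo2, Etnppl and Ddc are mostly red left of the line and blue right of it, and WT replicate 2 and Nrf2Act-hep replicate 10, each the lowest of its group in 16 genes, are blue in many others.

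Single libraries often held the extreme of their group. Nrf2Act-hep replicate 10 had the lowest value of its group in 16 of the 42 genes (38.1%, against 23.6% of all genes), and Nrf2Act-hep replicate 6 had the highest in 14 (33.3%, against 20.4%). In the WT group, replicate 2 was lowest in 16 genes (38.1%, against 22.8%), and replicate 1 was highest in 17 (40.5%, against 19.8%) and lowest in 0. The summed level of the listed genes was 13648 to 17330 CPM in Nrf2Act-hep and 11931 to 16279 CPM in WT, with WT replicate 2 at 11931 CPM. The median fold change of the 42 genes was -0.24 without WT replicate 2 and -0.11 without WT replicate 1.

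Within the M libraries alone limma called 4 of the 42 genes, Etnppl, Gpt2, Tdo2 and Amdhd1, where 3.10% of all genes passed. Within the F libraries alone it called 0, where 1.61% of all genes passed. There 11 of the 42 genes had an unadjusted p under 0.05 by limma, against 857 of all 8075 genes. The F fold changes of the 6 called genes had the same sign as in M libraries. They were 0.77 in F and 0.93 in M libraries for Etnppl, 0.66 and 0.65 for Ddc, 0.45 and 0.83 for Gpt2, 0.34 and 0.78 for Tdo2, -0.44 and -0.72 for Amdhd1, and -0.75 and -0.40 for Prodh. A test of the F minus M difference called 0 of the 42 genes by limma and 0 by edgeR, and 0.0248% of all genes by limma. By limma 1 of the 42, Hpd, had an unadjusted p under 0.05, against 576 of all 8075 genes. Of the 42 genes 29 had the same sign in both letters, 23 below 0 and 6 above it. The median fold change was -0.23 in F and -0.10 in M libraries.

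**Figure D4:**
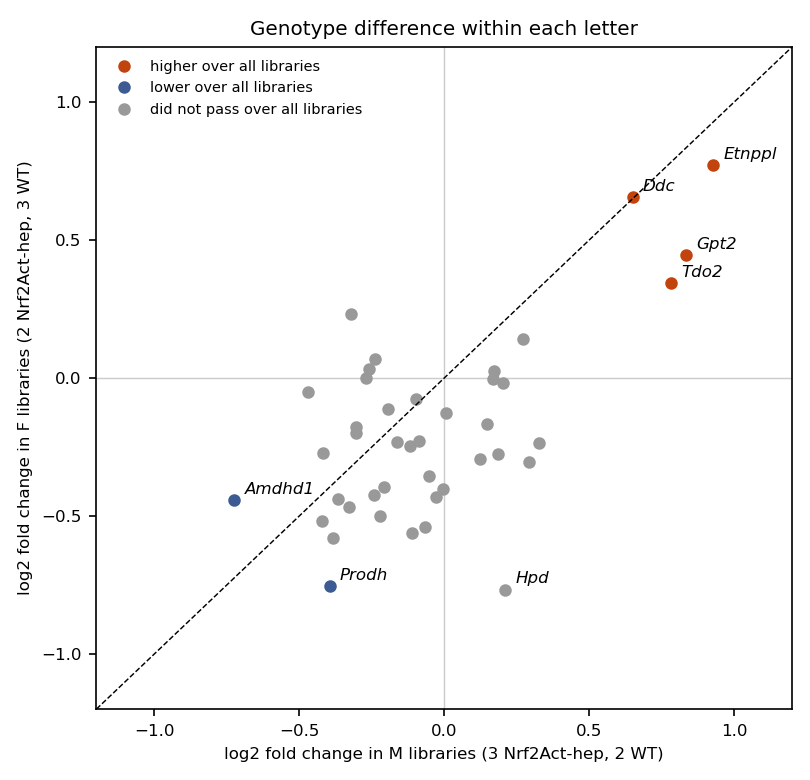
Genotype fold change of each tested gene in M libraries (x axis) and in F libraries (y axis), Nrf2Act-hep minus WT on the log2 of CPM + 1 scale, with called genes coloured and the diagonal marking equal values. The called genes lie in the same quadrant for both letters, and Hpd, at -0.77 in F and 0.21 in M, lies far below the diagonal.

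No listed gene was called between M and F libraries. With genotype as covariate 0 of 42 passed by limma and 0 by edgeR, where 1.16% of all genes passed by limma. An unadjusted p under 0.05 by limma was found for 5 of the 42, against 823 of all 8075 genes. The lowest adjusted p by limma was 0.198, for Etnppl, at an M minus F difference of 0.42 ± 0.14 (SE). Tat had the difference farthest below 0 of the 5, at -0.58 ± 0.22, and Acmsd that farthest above, at 0.62 ± 0.26.

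A list of 82 other genes of amino acid metabolism, chosen by pathway, was set beside the 43. Of its 71 tested genes 0 rose and 2 fell by limma, which is 2.82% against 4.64% of all genes, and edgeR and DESeq2 each called 2. By limma 11 of the 71 had an unadjusted p under 0.05, against 1308 of all 8075 genes. The median fold change of the 71 genes was -0.04 and 38 were below 0. Agxt, the liver enzyme that detoxifies glyoxylate with alanine as amino donor, averaged 61.7 ± 17.2 CPM in Nrf2Act-hep and 120.1 ± 26.7 CPM in WT (SD, n = 5 each), without overlap. Its fold change was -0.93 ± 0.18 (limma, adjusted p = 0.00334). Aspdh, annotated as an aspartate dehydrogenase, averaged 24.8 ± 2.67 CPM in Nrf2Act-hep and 38.3 ± 5.59 CPM in WT, without overlap, with a fold change of -0.59 ± 0.15 (limma, adjusted p = 0.0217). By pathway, 0 of 14 urea and nitrogen genes, 0 of 8 tryptophan genes, 0 of 7 tyrosine and phenylalanine genes and 0 of 19 branched-chain and lysine genes passed by limma, and edgeR and DESeq2 called 0 in each. In the branched-chain and lysine list 13 of 19 fold changes were above 0 and the median was 0.02.

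Urea synthesis and histidine breakdown are known to be strongest near the portal vein, and lists of zone markers were counted for that reason. Of 10 periportal markers 1 rose (Cyp2f2, 10% against 2.79% of all genes) and 1 fell (Cdh1, 10% against 1.86%) by limma. Of the 10 fold changes 7 were below 0 and 3 above it, with a median of -0.21. The markers include the listed genes Sds, Hal, Gls2 and Uroc1, all below 0, so this median is not independent of the listed genes. The summed periportal level, most of it Pck1 and Cyp2f2, was 3229.3 to 4356.7 CPM in Nrf2Act-hep and 2850.3 to 3878.1 CPM in WT. Of 9 tested pericentral markers 1 rose (Cyp1a2, 11.1% against 2.79% of all genes) and 0 fell by limma, with a median of 0.18. Of these fold changes 7 were above 0 and 2 below it. The summed pericentral level, most of it Cyp2e1 and Cyp1a2, was 2897.5 to 4141.2 CPM in Nrf2Act-hep and 2353.3 to 3098.6 CPM in WT. Glul, the glutamine synthetase of the hepatocytes around the central vein that captures ammonia left by the urea cycle, had a fold change of 0.18 ± 0.12 (SE, n = 5 each; limma, adjusted p = 0.495). Summed macrophage and endothelial markers overlapped between genotypes. Macrophage markers were at 152.0 to 224.6 CPM in Nrf2Act-hep and 196.8 to 246.8 CPM in WT, and endothelial markers at 268.2 to 332.1 CPM in Nrf2Act-hep and 273.7 to 345.2 CPM in WT. Of the 8 macrophage markers 7 had a fold change below 0, and 1, Timd4, fell by limma (12.5%, against 1.86% of all genes). Timd4 was at 5.42 ± 2.66 CPM in Nrf2Act-hep and 10.9 ± 1.56 CPM in WT (SD, n = 5 each; limma, adjusted p = 0.0337). By edgeR and DESeq2 the macrophage marker called was Marco. Of the endothelial markers 0 passed by limma, edgeR or DESeq2, and 0 had an unadjusted p under 0.05. Stellate, cholangiocyte, leukocyte and erythroid sums overlapped too. Fold changes were below 0 for 5 of 6 stellate, 3 of 3 cholangiocyte, 2 of 4 leukocyte and 5 of 5 erythroid markers tested. By limma Cdh1 fell among the cholangiocyte markers (33.3%, against 1.86% of all genes) and 0 passed in the other lists. By edgeR and DESeq2 Cdh1 and the stellate marker Col3a1 were called, and by edgeR also the leukocyte marker S100a8. The part of zone or cell makeup in the values of the listed genes was not tested.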

How the data were processed

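RNA from mouse liver was made into 10 libraries of 3′ tags with the Lexogen QuantSeq FWD kit and read as single reads of 75 bases, per the labels' protocols. The authors deposited 1 table of CPM values on build GRCm38 (per the submitters' processing notes). How reads were aligned and counted, with which annotation and use of strand, is not given in the sources used here. Every column had the total that defines CPM. Divided by what 1 read is worth, 100% of the values came out whole within 0.01 read, which gave back the reads. Symbols and positions came from GENCODE models on GRCm38.

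TMM scaling used edgeR 4.0.16. limma 3.58.1 in R 4.3.3, with a variance trend and robust moderation, was fitted on log2(CPM + 1), pseudocount 1, over 8075 genes with 10 reads at the median depth (4.50 CPM) in at least 5 libraries and 15 reads in all. Adjustment was by the Benjamini-Hochberg method. This scale understates the change of low genes. Alternatives were edgeR and DESeq2 1.42.0 on the recovered reads, other pseudocounts, filters and scalings, each letter alone and each library left out. Replicate numbers run from 1 to 10 without repeats. Tags are reads and not molecules, so the exact interval of the Asns read ratio and the floors cover counting error only. The limma intervals of the fold changes rest on variation among libraries. The 43 genes, the other lists and the alternatives were chosen with earlier results of these data known. All 43 genes are described. Genes outside the 43 were named as members of another list, or because they overlap a 3′ end.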

Additional observations from a re-analysis of the deposited data

Results flagged for a closer look

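In 6 of 86 groups of 5 libraries, 1 library stood apart from the other 4 by a gap of more than 0.71 of the whole range of the group. Such a gap arises by chance in about 1 in 20 groups. In the Nrf2Act-hep libraries, Ivd in replicate 10 was 34.5 CPM, against 72.4 to 77.0 CPM in the other 4. Etnppl in Nrf2Act-hep replicate 9 was 145 CPM, against 251 to 280.0 CPM in the other 4. Amdhd1 in Nrf2Act-hep replicate 6 was 60.9 CPM, against 70.6 to 73.8 CPM in the other 4. In the WT libraries, Glud1 in replicate 4 was 416 CPM, against 569 to 589 CPM in the other 4. Mccc1 in WT replicate 4 was 19.2 CPM, against 13.4 to 14.9 CPM in the other 4. Aass in WT replicate 2 was 245 CPM, against 380.0 to 408 CPM in the other 4. Of these genes Etnppl and Amdhd1 were called between genotypes, and both passed by limma without the library that stood apart. For the other 4 the library lowered or raised 1 mean of a gene that was not called.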

How the results depend on the processing

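No fold change of a called gene changed sign under any of the 21 alternatives run, and 15 genes that were not called did so under at least 1. Without TMM, on the deposited scale, 384 genes rose and 80 fell, against 225 and 150 with TMM, so that the share of calls that were higher was 82.8% instead of 60%, and of the listed genes 1 fell instead of 2. By DESeq2 4 listed genes fell (Amdhd1, Prodh, Ass1 and Hal). In the M libraries alone 88 genes fell and of the listed genes 1 fell. In the F libraries alone 82 genes rose and 48 fell, and of the listed genes 0 rose and 0 fell. With 1 library left out at a time, 147 to 205 genes rose and 84 to 152 fell, and of the listed genes 3 to 4 rose and 1 to 4 fell. The F minus M difference of the genotype change was called in 2 genes, in 4 by edgeR, and in 1 to 12 with 1 library left out. The M minus F difference was called in 94 genes, and in 57 to 147 with 1 library left out. The causes of these shifts were not tested, beyond the fewer libraries in the subsets. No paired analysis was possible because the replicate numbers run from 1 to 10 and no number is shared between genotypes. Standard errors of the 42 listed genes ran from 0.11 to 0.28 on the log2 scale, so changes of that size were not detectable with 5 libraries a group.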
